A study of Arabidopsis thaliana with 22 samples.

Results

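The red-light response of wild-type Arabidopsis thaliana seedlings was set against the response of 2 phytochrome mutants, gene by gene. The value followed throughout is the difference of responses: the wild-type change from darkness to red light minus the mean change of phyABCDE and phyABDE. A positive difference means that a gene moved further up in wild type than in the mutants, and a negative one that it moved further down. Of the 22 arrays of the series, 17 entered the comparison, chosen by their labels. Wild type gave 3 dark arrays (replicates 2 to 4) and 2 red arrays (R50). The quintuple mutant phyABCDE and the quadruple mutant phyABDE each gave 3 dark and 3 red arrays. All seedlings were in the Ler background and were harvested whole when 4 days old. They had been imbibed in the cold for 4 days and given white light for 3 hours to start germination. They then grew in darkness, or under continuous red light at 50 micromoles per square metre per second. The mutant alleles are not given in the sources used here. Seedlings given 2 hours of red light and wild-type dark replicate 1 were not used here. The series text states that the 5 wild-type arrays had been labelled with the older One-cycle kit and every mutant array with the 3' IVT Express kit, whereas the sample labels name the IVT Express kit throughout. An array-wide shift of a kit drops out of each response. A kit that stretched or shrank changes and the genotype cannot be told apart, since each kit went with its own genotypes. The tests therefore rest on changes within each genotype. Levels of different genotypes that are printed side by side may differ by kit as well as by genotype.

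Phytochromes are photoreceptors that red light turns into their active form, which moves to the nucleus and leads to the loss of growth-promoting transcription factors. In darkness a seedling elongates its hypocotyl and keeps its plastids pale. In the light it stops that growth, opens its cotyledons and builds chloroplasts. The phyABCDE mutant is labelled as lacking all 5 phytochromes and phyABDE as keeping phytochrome C. The phytochrome genes had no named probe set here, so the genotype labels were not checked against them. Because whole seedlings were sampled, fewer cells of a type and less RNA per cell cannot be told apart.

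The arrays were alike in overall brightness, with median intensities from 40.2 to 44.9, and replicates of a group correlated at 0.987 to 0.995 across probe sets. Wild-type dark replicate 4 stood apart for root hair genes (EXPA7, EXPA18 and XTH26), at a mean log2 level of 4.73 against 3.39 and 3.45 in the other dark wild-type arrays. It was also the highest of the 3 for 8 seed genes, at 6.55 against 4.51 and 5.50. The same seed genes averaged 10.2 to 10.5 in dark phyABCDE and 7.88 to 9.95 in dark phyABDE, whose replicate 1 was the lowest of its group in both lights. Photosystem genes, which mark green cells, averaged 10.5 to 10.7 in dark wild type and 12.2 in both red wild-type arrays. Stomatal lineage genes averaged 5.24 to 5.29 and 5.97 to 6.18 in the same groups.

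Most of the large changes that red light brought in wild type were absent or much smaller in the mutants. TUB1, a tubulin, GH9B8, an endoglucanase, and IAA29, an auxin response gene, fell in wild type with smaller mutant changes that were not called, and the photosystem I subunit PSAN rose in wild type and was not called in the mutant mean. Over 22746 probe sets, the moderated test of limma on log2 values with Benjamini-Hochberg adjustment called 4010 in the difference of responses, which was 17.6% of those tested. The wild-type response was the higher one at 1963 (8.63%) and the lower one at 2047 (9%), and 1875 (8.24%) differed by at least 2-fold. The wild-type response by itself was called at 5947 probe sets (26.1%), and 2204 of them (9.69%) changed at least 2-fold, 1194 upward (5.25%) and 1010 downward (4.44%). Without wild-type R50 replicate 1 the wild-type count was 3898, with only 1 red array left and its spread taken from the other groups. The mean mutant response was called at 143 probe sets (0.629%), 126 upward (0.554%) and 17 downward (0.0747%), while 2638 (11.6%) had an unadjusted p under 0.05. Pairing mutant arrays by replicate number raised the 143 to 333. Leaving out 1 array lowered it by over 1.5 times in 8 cases. It became 58 without phyABCDE dark replicate 1, 59 without dark replicate 2, and 65 without R50 replicate 1 or 2. It became 48 without phyABDE dark replicate 2, 86 without dark replicate 3, 46 without R50 replicate 2 and 54 without R50 replicate 3.

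The 2204 probe sets that changed at least 2-fold in wild type were sorted by what the mutants did. A response counted as lost when the difference was called, the mean mutant response was not, and the whole 95% interval of the mutant response was smaller in size than 0.5 times the wild-type change. That held for 1820 probe sets, 8% of all those tested and 82.6% of the wild-type responders, with 963 (4.23%) going up and 857 (3.77%) going down in wild type. Lost here does not mean absent, as the mean mutant response ran from -29.8% to 33.2% of the wild-type change. In phyABDE all red arrays lay apart from all dark ones in the wild-type direction at 464 of the 1820 and in the opposite direction at 58. In phyABCDE these counts were 174 and 56. Over all 22746 probe sets they were 3075 and 1166 in phyABDE, and 1319 and 1030 in phyABCDE. A further 69 (0.303%) were reduced, meaning that both the mutant response and the shortfall against wild type were called. Another 9 (0.0396%) were kept, with a called mutant response in the wild-type direction and no called difference. The remaining responders, 295 of them (1.3%), apart from those that turned, could not be placed by these calls. Outside this sorting by size, 17 probe sets (0.0747%) turned, with called responses of opposite direction in wild type and mutants, and 11 of the 17 were at least 2-fold in wild type. A last 13 (0.0572%) were called in the mutants and in the difference but not in wild type. These classes are sets of calls on the same arrays, so their sizes describe the sorting and are no further test.

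**Figure D1:**
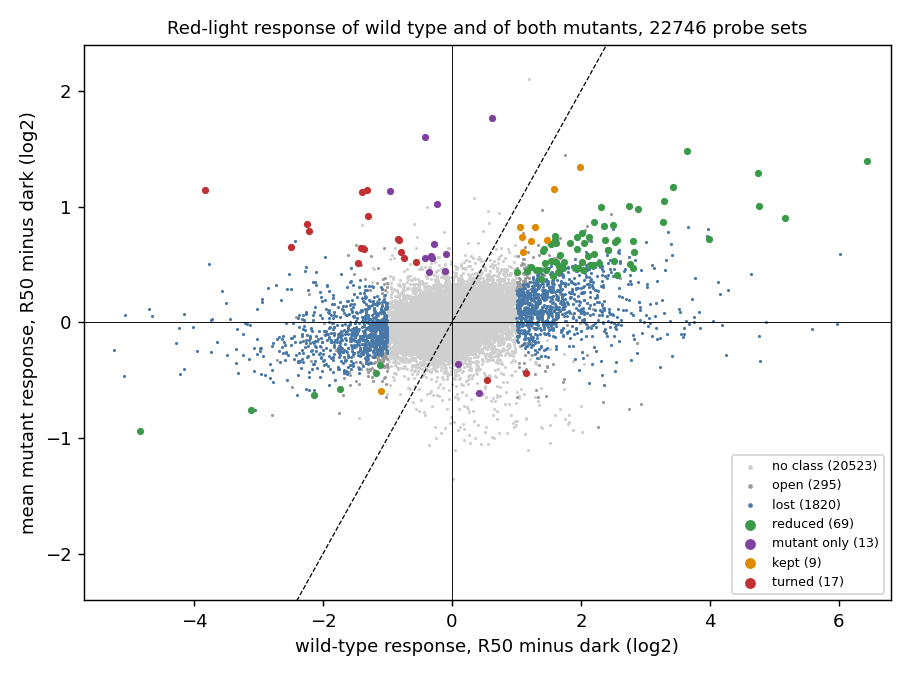
Each point is 1 of 22746 probe sets, with the wild-type red response on the x axis and the mean response of both mutants on the y axis, both as R50 minus dark on the log2 scale. The dashed line marks equal responses. The 1820 lost probe sets lie near the horizontal axis, at -29.8% to 33.2% of the wild-type response. The 69 reduced ones lie between the axis and the line, and the 17 turned ones in the upper left and lower right.

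The gene with the largest negative difference, OLEO3, encodes an oleosin, a coat protein of seed oil bodies. Its log2 level was 9.55, 9.07 and 9.38 in dark wild type and 4.12 and 4.42 in red wild type. In phyABCDE it was 9.48, 9.42 and 9.32 in darkness and 9.46, 9.25 and 9.37 in red light. In phyABDE it was 9.15, 9.15 and 9.20 in darkness and 9.40, 9.24 and 9.40 in red light. OLEO3 was thus high in every array except the red wild-type ones, which stood far below all others. The wild-type fall was 33.5-fold, and the mean mutant change was 0.07 (95% interval -0.12 to 0.26). The difference of responses was -5.13 ± 0.17 (SE), with a limma adjusted p of 6.6e-12.

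Other named genes had large negative differences too. TUB1, a beta-tubulin, fell 9.18-fold in wild type, from 10.70, 10.61 and 10.96 in darkness to 7.74 and 7.37 in red light. In phyABCDE it stood at 10.25, 10.26 and 10.33 in darkness and 10.26, 10.14 and 10.49 in red light. In phyABDE it stood at 9.94, 9.95 and 9.99 and at 10.21, 9.96 and 9.63. Dark and red ranges overlapped in both mutants, and the difference was -3.19 ± 0.20 (limma adjusted p = 5.7e-09). GH9B8, an endoglucanase of the wall-loosening kind, fell from 7.35, 6.58 and 6.91 to 3.93 and 4.26 in wild type, and its mean mutant response was 0.30 (95% interval -0.01 to 0.62). GH9B13 and GH9C2, relatives of GH9B8, had differences of -3.05 and -2.54. In GH9C2 the red arrays of both mutants lay above their dark arrays, with a mean mutant response of 0.44 that was not called (limma adjusted p = 0.16). PME61, a pectin methylesterase, had a difference of -2.52, and chr31, a gene of the chromatin-remodelling helicase family, one of -2.46.

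On the rising side, the named gene with the largest difference was IQD24, of the calmodulin-binding IQ-domain family. It was measured at 2.94, 3.07 and 3.26 in dark wild type and at 6.83 and 7.02 in red wild type. In phyABCDE it was 3.65, 3.51 and 3.25 in darkness and 3.28, 3.52 and 3.42 in red light, and in phyABDE 3.29, 2.97 and 2.83 and then 3.11, 3.31 and 3.41. Both mutants' ranges overlapped between the lights. The difference was 3.74 ± 0.19 (limma adjusted p = 9e-10). THI2.2, a thionin (a small antimicrobial protein), went from 3.69, 4.10 and 3.66 to 6.99 and 7.74 in wild type, and its mean mutant response was -0.10 (95% interval -0.39 to 0.19). MSRB6, a methionine sulfoxide reductase, had a difference of 2.46, and CHX20, a cation/proton exchanger of guard cells, one of 2.35. YAB5, a YABBY factor of leaf development, had one of 2.34, the glutathione transferase GSTU16 one of 2.22 and the multicopper oxidase LPR2 one of 2.14. No detection calls were used, so the low dark levels of IQD24, MSRB6, CHX20 and GSTU16 are not shown to be above background. With an offset of 16 added to every intensity, which shrinks changes of dim genes, IQD24 gave 2.46, MSRB6 1.63, CHX20 1.44 and GSTU16 1.33, all still called by limma.

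Several of the largest differences fell on genes known here only by locus. AT1G22690 rose from 2.62, 2.80 and 2.53 to 7.75 and 8.71 in wild type, a difference of 5.63 ± 0.24, and its 12 mutant arrays lay between 2.54 and 2.96. AT3G57020 differed by 5.12, AT3G22060 by 4.87, AT4G28780 by 4.87 and AT5G43450 by 3.90. The responses of all 5 were classed as lost. On the falling side AT4G35720 differed by -4.27, AT2G34020 by -4.18, AT5G57670 by -3.97, AT1G72290 by -3.83, AT5G02580 by -3.75 and AT3G05950 by -3.48. AT4G35720 was higher in red than in dark phyABDE, at 10.70, 10.34 and 10.27 against 9.67, 10.02 and 9.73, though its mean mutant response of 0.51 was not called (limma adjusted p = 0.095). With the offset of 16, AT5G43450 gave 2.30 and AT1G72290 -2.37.

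**Figure D2:**
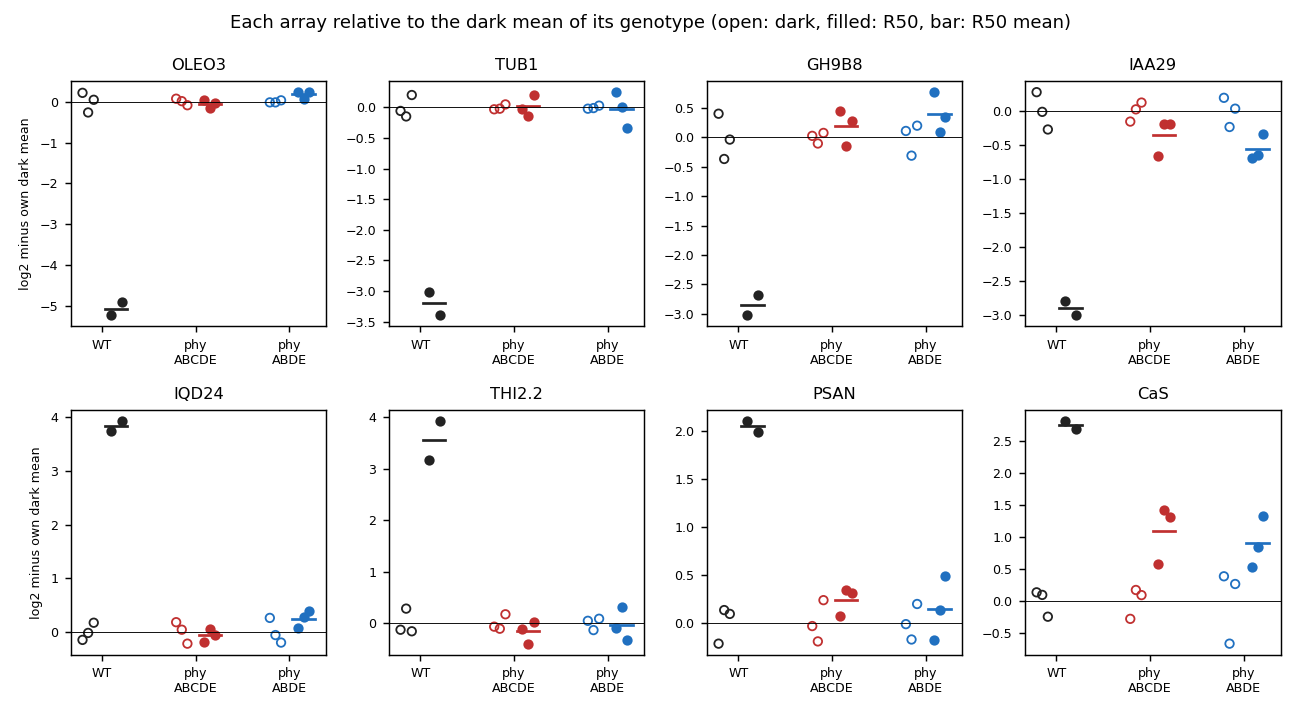
Each panel shows 1 gene and each point 1 array, as its log2 level minus the dark mean of its own genotype, with dark arrays open, R50 arrays filled and bars at the R50 means. The red wild-type arrays of OLEO3, TUB1, GH9B8 and IAA29 lie well below 0 and those of IQD24, THI2.2 and PSAN well above it, while the mutant arrays stay close to 0, with the red ones of IAA29 somewhat below it. For CaS the red mutant arrays lie above the dark ones and below those of wild type.

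Light-signalling and growth-hormone genes were ordered next by their roles. HYH, a bZIP factor that acts with HY5 in greening, rose from 3.94, 3.60 and 3.79 to 5.95 and 5.70 in wild type. Its mean mutant response was 0.37 (95% interval 0.12 to 0.62, limma adjusted p = 0.2) and its difference 1.68 ± 0.22 (limma adjusted p = 3.6e-05). In phyABDE it read 4.43, 4.04 and 4.06 in red light against 4.04, 3.35 and 3.60 in darkness. The groups lay just apart there, red above dark, although the closest arrays both round to 4.04. In phyABCDE, at 3.64, 3.87 and 3.87 against 3.42, 3.77 and 3.54, they overlapped. FHL, a carrier that helps phytochrome A into the nucleus, went the other way, from 5.24, 4.98 and 4.93 to 3.14 and 3.05 in wild type. Its difference was -1.85 ± 0.16 (limma adjusted p = 4.4e-07). With the offset of 16 the differences of FHL and HYH were -0.94 and 1.12.

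Among 20 auxin and shade growth genes, 9 were called lower and 1 higher in the difference, in a comparison that called 9% of all probe sets lower and 8.63% higher. The median difference was -0.49, against -0.02 over all 13355 genes. IAA29, an Aux/IAA repressor that is high in elongating seedlings, fell from 7.89, 7.60 and 7.34 to 4.82 and 4.61 in wild type. In phyABCDE it was 6.73, 6.91 and 7.01 in darkness and 6.22, 6.70 and 6.69 in red light, and in phyABDE 7.41, 6.98 and 7.25 and then 6.53, 6.57 and 6.87. Red values lay below dark ones in all 3 genotypes, and the mutant change was the smaller one. The mean mutant response of -0.45 (95% interval -0.70 to -0.20) was not called (limma adjusted p = 0.1), and the difference was -2.44 ± 0.22 (limma adjusted p = 7.2e-07). IAA20, a second Aux/IAA gene, had a difference of -2.25, WAG2, a kinase acting on auxin transport, one of -2.17, and HAT2, an auxin-induced homeobox factor, one of -1.51. WES1, which conjugates auxin to amino acids, had a difference of -1.58 with a mutant response of -0.03. YUC6, an auxin-synthesis enzyme, and BIM1, a brassinosteroid-signalling factor, had smaller called differences of -0.66 and -0.64. YUC6 was not called without wild-type dark replicate 2 (limma adjusted p = 0.06) or R50 replicate 1 (-0.44, limma adjusted p = 0.22), and BIM1 not without R50 replicate 1 (limma adjusted p = 0.082). The 1 gene called higher was GH3.9, at 0.87. Without wild-type dark replicate 3 the list had 2 genes called higher. The other called gene of the list was IAA34, at -0.66, a call lost in 17 of 28 alternatives and kept, among single arrays, only without phyABCDE dark replicate 1, phyABCDE R50 replicate 2, phyABDE dark replicate 3 or wild-type dark replicate 3. The 10 uncalled members had differences from -0.73 in GH3.17 to 0.40 in PID2. FHL was counted in this list too. In the mean mutant response the smallest limma adjusted p of the list was 0.1, that of IAA29.

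Wall-loosening and pectin enzymes split in both directions, with 17 of 47 called lower and 6 higher, against 9% and 8.63% of all probe sets. The median difference was -0.16. The called lower members included the expansin-like genes EXLA2 (-2.43), EXLA1 (-1.64) and EXLB1 (-1.16), and the expansins EXPA9 (-2.16), EXPB1 (-1.79) and EXPA8 (-1.03). They also included XTH33 (-2.13) and XTH19 (-2.14), enzymes that cut and rejoin xyloglucan, and the pectin methylesterase gene ATPMEPCRD (-2.38). Those called higher were GH9C1 (1.84), the root hair expansins EXPA7 (1.73) and EXPA18 (1.33), EXPA16 (0.95), PMEPCRF (0.87) and EXGT-A3 (0.82). Without wild-type R50 replicate 1 EXPA8 and PMEPCRF were not called (limma adjusted p = 0.11 and 0.053), and without R50 replicate 2 EXLB1 and EXGT-A3 were not (limma adjusted p = 0.053 and 0.051). XTH32 was the 1 member called in the mean mutant response, at 0.64, and was chosen after its values were seen. Its wild-type response was 0.77, and its difference of 0.12 was not called. Of the 23 called members, 18 had a response classed as lost.

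Tubulins, the subunits of microtubules, had a median difference of -0.65. Of the 7 members, 5 were called lower and none higher, against 9% and 8.63% of all probe sets. After TUB1 these were TUA6 (-1.04), TUB6 (-0.93), TUB5 (-0.65) and TUB9 (-0.56). The count of lower members was 3 without phyABDE dark replicate 2, wild-type dark replicate 4 or either red wild-type array. TUB9 was not called without phyABDE dark replicate 2 (limma adjusted p = 0.051), wild-type dark replicate 3 or 4 (limma adjusted p = 0.069 for each) or R50 replicate 1 or 2 (limma adjusted p = 0.12 and 0.092). TUB5 was not called without wild-type dark replicate 2 or 4 or without either red wild-type array (limma adjusted p = 0.1, 0.072, 0.18 and 0.074). It was also not called without phyABCDE dark replicate 1 or 2, phyABCDE R50 replicate 1 or 3, phyABDE dark replicate 2 or 3 or phyABDE R50 replicate 1, with limma adjusted p from 0.05 to 0.061. All 7 mean mutant responses lay between -0.26 and 0.01. TUB7 and TUA1 were not called, at -0.22 and 0.33. Genes of the TON1 recruiting motif family, whose products bind microtubules, had 3 of 14 called lower (TRM24 at -1.31, TRM25 at -1.07, TRM26 at -0.92) and 1 called higher (TRM19 at 0.94). Those counts stand against the same 9% and 8.63%. With the offset of 16 TRM24 and TRM25 both gave -0.68, and without wild-type R50 replicate 2 TRM26 was not called (limma adjusted p = 0.08). TRM28, at -1.05, was not called (limma adjusted p = 0.051), and it was called with mutant arrays paired by number (limma adjusted p = 0.048). It was also called without phyABCDE dark replicate 1, phyABDE R50 replicate 2 or wild-type dark replicate 3 or 4, at -1.13, -1.15, -1.26 and -1.17. The IQ-domain family, also linked to microtubules, had 2 of 15 called higher and 5 lower, against 8.63% and 9% of all probe sets. Its median was -0.38. IQD26 (-1.71), IQD19 (-1.08), IQD30 (-0.98), iqd32 (-0.91) and IQD22 (-0.79) moved opposite to IQD24. Without wild-type R50 replicate 1, IQD30, iqd32 and iqd21 were not called (limma adjusted p = 0.057, 0.15 and 0.091), which left 1 called higher and 3 lower.

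Chloroplast genes encoded in the nucleus moved the other way. All 5 genes of the photosystem list were called higher in the difference, against 8.63% of all probe sets, with a median of 1.16. One of the 5, PSB27, was added to the list after its values were seen. PSAN, a subunit of photosystem I, rose from 10.23, 10.58 and 10.54 to 12.55 and 12.44 in wild type. In phyABCDE it was 9.79, 9.63 and 10.06 in darkness and 9.90, 10.17 and 10.13 in red light, and in phyABDE 10.36, 10.20 and 10.57 and then 10.19, 10.51 and 10.86. The mutant ranges overlapped between lights, and the difference was 1.86 ± 0.22 (limma adjusted p = 1.1e-05). PSAE-1 differed by 1.23, PSBY by 1.16, PSB27 by 1.06 and PSBW by 1.00. All 5 had mean mutant responses above 0, from 0.19 to 0.45, and PSBW's was the 1 that was called.

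The LHCB4 proteins are minor antennae that pass light energy to photosystem II. LHCB4.2 rose from 9.29, 9.51 and 9.80 to 11.67 and 11.72 in wild type. It read 8.14, 7.86 and 8.71 in dark and 8.73, 8.89 and 8.96 in red phyABCDE, and 9.25, 8.63 and 9.29 and then 9.47, 9.81 and 10.24 in phyABDE. Red values lay above dark ones in each genotype, and the mean mutant response of 0.70 (95% interval 0.37 to 1.04) missed the threshold (limma adjusted p = 0.056). Its difference was 1.45 ± 0.30 (limma adjusted p = 0.0021), and that of LHCB4.1 was 1.10. LHCB4.3 was not called, at 0.57, and gave 0.06 without wild-type R50 replicate 1 and 1.08 without replicate 2.

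The NDH complex carries electrons around photosystem I. For 8 nuclear genes of its subunits and of CRR proteins that help to make it, the median difference was 0.80. Of these genes 5 were called higher, against 8.63% of all probe sets. They were NdhS (1.47), NdhN (1.32), NdhL (1.10), CRR42 (0.86) and CRR22 (0.73). Without wild-type R50 replicate 1, CRR42 gave 0.62 and was not called (limma adjusted p = 0.12). CRR41, CRR28 and CRR21 had differences of 0.50, 0.47 and 0.28 that were not called. Of 4 enzymes of carbon fixation and photorespiration, 3 were called higher, against the same 8.63%. They were HPR, a hydroxypyruvate reductase, at 1.77, SBPASE, a Calvin cycle phosphatase, at 1.20, and RCA, the activase of Rubisco, at 1.05. PRK, at 0.56, was not called (limma adjusted p = 0.091), but was without phyABCDE dark replicate 1 (0.65, limma adjusted p = 0.02). Mean mutant responses of the 4 lay between 0.16 and 0.36, and none was called.

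Enzymes of tetrapyrrole synthesis, the route to chlorophyll and haem, had 5 of 9 called higher and 1 lower, against 8.63% and 9% array-wide. Their median difference was 0.55. CHLM, a methyltransferase of the chlorophyll branch, differed by 1.17 and HEME1 by 0.92. CHLI2 (0.76), HEME2 (0.66) and HEMB1 (0.55) followed. CHLI2 was not called without wild-type dark replicate 3 or either red array (limma adjusted p = 0.078, 0.14 and 0.052), and HEME2 not without wild-type dark replicate 2 or 3 or R50 replicate 1 (limma adjusted p = 0.066, 0.057 and 0.17). HEMB1 lost its call in 11 of 28 alternatives. These were the fits without phyABCDE dark replicate 2 or 3, phyABCDE R50 replicate 1 or 3, phyABDE dark replicate 3, phyABDE R50 replicate 1, wild-type dark replicate 2 or 4 or wild-type R50 replicate 1 (0.33 in the last), and both that left out the phyABDE replicate 1 pair (limma adjusted p from 0.05 to 0.33). The count of 5 was 3 without wild-type dark replicate 2 or 3, 2 without wild-type R50 replicate 1 and 3 without both phyABDE replicate 1 arrays. PORB, the protochlorophyllide reductase that works in light, was lower at -0.51 (limma adjusted p = 0.035), a call lost in 10 of 28 alternatives. It was lost with mutant arrays paired by number (limma adjusted p = 0.051) and with median centring (limma adjusted p = 0.068). It was also lost without phyABCDE dark replicate 1 or R50 replicate 2, phyABDE dark replicate 2 or R50 replicate 2, wild-type dark replicate 2 or 3 or wild-type R50 replicate 1 or 2 (limma adjusted p from 0.05 to 0.16). HEMA2, HEMA3 and GSA1 were not called, at -0.16, 0.13 and 0.15.

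Thioredoxins and related redox proteins, many of them of the plastid, had 7 of 13 called higher and 2 lower, against 8.63% and 9% array-wide. The median difference was 0.87. TRXF2, a plastid thioredoxin that switches on Calvin cycle enzymes in light, rose from 7.32, 7.12 and 7.49 to 9.33 and 9.38 in wild type. It ranged from 7.53 to 8.22 over the 12 mutant arrays, and its difference was 1.85 ± 0.19 (limma adjusted p = 2.4e-06). MSRB6 (2.46), TAPX, a thylakoid ascorbate peroxidase (1.32), THX (1.19), ty2 (1.16), ATHM2 (1.07) and NTRC (0.87) were the others called higher. NTRC was not called without wild-type dark replicate 2 or 3 or R50 replicate 1 or 2 (limma adjusted p = 0.052, 0.071, 0.062 and 0.14). MSRB9 (-1.36) and TY1 (-0.88) were lower. MSRB5, at -1.67, was not called (limma adjusted p = 0.096), but was without phyABCDE R50 replicate 3 (-1.88, limma adjusted p = 0.049).

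Of the 69 genes encoded in the plastid itself, 3 were called higher, 4 lower and 62 not called, with a median difference of -0.32. Those counts are no larger than the shares over all probe sets, 8.63% higher and 9% lower. With mutant arrays paired by number the counts were 6 higher and 9 lower. The median was -0.08 without phyABCDE dark replicate 1, -0.48 without phyABCDE dark replicate 3, and -0.51 over the 61 with a mean log2 of at least 5. The 3 were rps14 (2.27), petD (1.44) and rpoB (0.94), and the 4 were rpoC2 (-1.53), rpl20 (-1.19), rps15 (-0.95) and matK (-0.80). In rps14 dark wild-type replicate 4 read 5.40 against 3.78 and 3.89 in the other dark arrays, and the red arrays read 6.72 and 6.67. The call on rpoC2 was lost in 9 of the 28 alternatives. It was lost without wild-type dark replicate 2 or 3 (limma adjusted p = 0.1 and 0.054), without wild-type R50 replicate 1 or 2 (limma adjusted p = 0.069 and 0.17), and without phyABDE dark replicate 2 or 3 or R50 replicate 2 (limma adjusted p = 0.052, 0.057 and 0.052). The call on petD was lost without wild-type dark replicate 2 or 3 or R50 replicate 1 or 2 (limma adjusted p = 0.091, 0.078, 0.096 and 0.11). That on rpl20 was lost without wild-type dark replicate 2 or R50 replicate 2 (limma adjusted p = 0.059 and 0.23), and that on rps15 without wild-type dark replicate 2 or R50 replicate 1 or 2 (limma adjusted p = 0.073, 0.096 and 0.077). That on matK was lost in 19 of 28 alternatives, and among single arrays it held only without phyABCDE dark replicate 1 or 2 or phyABDE dark replicate 1. The largest change by size was in rpl16, at -2.46, which was not called (limma adjusted p = 0.062). With mutant arrays paired by number it was called (limma adjusted p = 0.0046), as was rpl14 at -1.89 (limma adjusted p = 0.015). The call on rpl16 was also made with array weights, in the fit over all 22 arrays and with the minimum mean log2 of 5. Among single arrays rpl16 was called without wild-type dark replicate 4 (-3.07), without any 1 of the phyABCDE dark arrays (-1.99, -2.70 and -2.71) and without phyABCDE R50 replicate 1 (-2.76). The mutants differed in these genes by their medians, at 0.35 in phyABDE with 59 of 69 above 0, and -0.12 in phyABCDE with 22 of 69 above 0. The smallest limma adjusted p of a plastid-encoded gene was 0.15 in phyABDE and 0.99 in phyABCDE. The phyABCDE median rested on single arrays, at -0.60 without dark replicate 1, 0.11 without dark replicate 2, 0.08 without dark replicate 3, -0.02 without R50 replicate 1 and -0.20 without R50 replicate 2. The phyABDE median lay between 0.28 and 0.45 when 1 array was left out. The called lower members numbered 0 without wild-type dark replicate 2 or R50 replicate 2 and 1 without R50 replicate 1. They numbered 2 without wild-type dark replicate 3, phyABDE dark replicate 2 or 3 or phyABDE R50 replicate 2, and 7 without phyABCDE dark replicate 1 or 2. The called higher ones numbered 8 without phyABCDE dark replicate 1 and between 2 and 4 without any other single array.

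**Figure D3:**
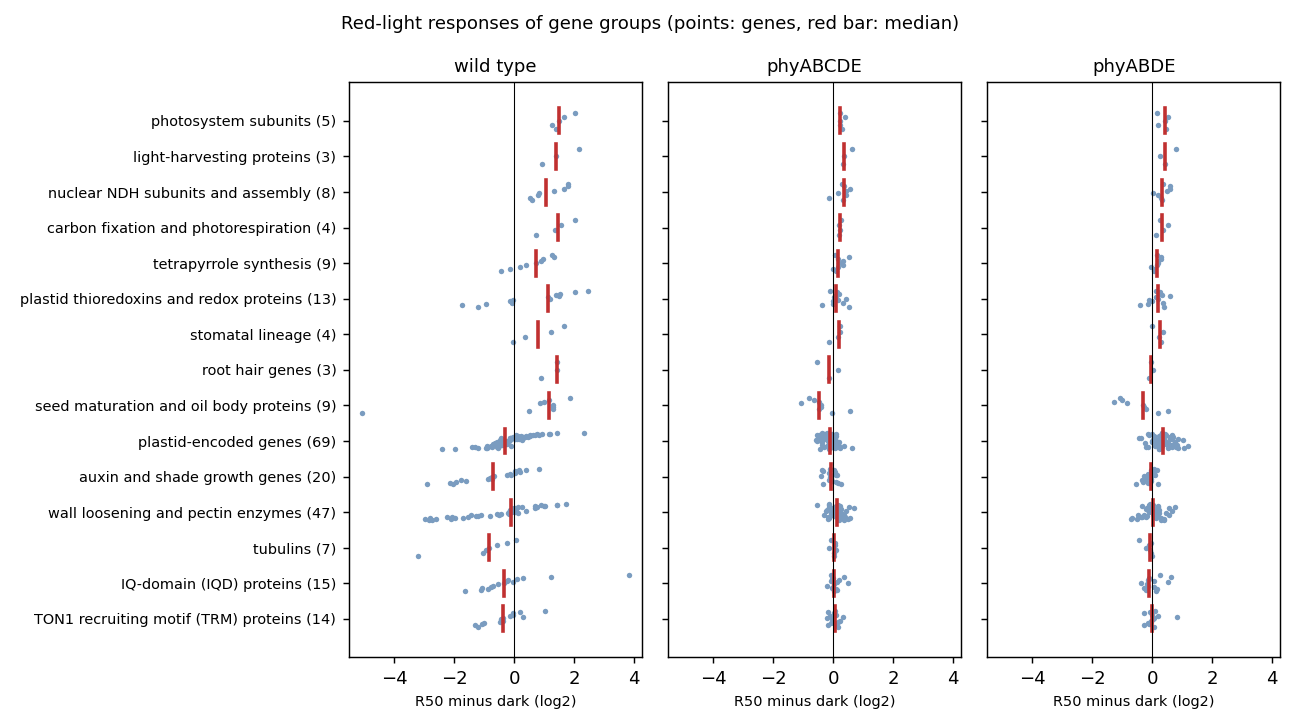
Each point is 1 gene of the group named at the left, with its R50 minus dark response on the log2 scale in wild type, phyABCDE and phyABDE, and red bars at group medians. Photosystem subunits have medians of 1.48, 0.24 and 0.41, auxin and shade genes of -0.70, -0.08 and -0.05, and plastid-encoded genes of -0.31, -0.12 and 0.35 in the 3 genotypes.

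Developmental regulators were few on the named part of the array. Their counts stand against 8.63% of all probe sets called higher and 9% called lower. SPCH and FMA, factors that start and finish the stomatal lineage, were called higher (0.95 and 1.58), and MUTE and STOMAGEN were not (0.16 and -0.11). SPCH read 5.81, 5.62 and 5.54 in dark and 6.90 and 6.88 in red wild type, and between 5.30 and 6.02 in all 12 mutant arrays. With the offset of 16 the difference of FMA was 1.05. Of 6 leaf and organ identity factors, YAB5 (2.34) and YAB3 (0.77) were called higher and TCP15, a growth regulator, lower (-1.33). YAB3 was not called without wild-type dark replicate 2 (0.59, limma adjusted p = 0.073) or without R50 replicate 1 or 2 (limma adjusted p = 0.1 and 0.074). CLV3, INO and PHV were not called, at -0.07, 0.28 and 0.39.

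Root hair genes were called higher in 2 of 3 cases, against 8.63% of all probe sets, and wild-type dark replicate 4 moved with them. The 2, EXPA7 and EXPA18, were already counted among the wall-loosening genes called higher. EXPA7 read 3.26, 3.52 and 4.55 in dark wild type, the last of these in replicate 4, against 5.18 and 5.26 in red light. XTH26 read 3.04, 3.26 and 4.97 against 4.31 and 4.96, and its difference of 1.00 was not called (limma adjusted p = 0.14). Without that array XTH26 gave 1.61 and was called (limma adjusted p = 0.00013), and all 3 genes were then called. EXPA18 lost its call without wild-type dark replicate 2 or 3 or R50 replicate 2 (limma adjusted p = 0.053, 0.065 and 0.12). With the offset of 16 EXPA7 gave 0.93 and EXPA18 0.83.

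The seed list behaved unlike OLEO3, its 1 called member. The other 8 genes, mostly of the late embryogenesis abundant kind, had differences from -0.04 to 2.80 with limma adjusted p of 0.071 or more. LEA read 3.06, 3.18 and 5.42 in dark wild type and 5.97 and 5.55 in red light. In phyABCDE it was 9.81, 9.74 and 9.42 in darkness and 9.36, 8.42 and 8.81 in red light, and in phyABDE 6.60, 9.01 and 7.90 and then 4.48, 8.17 and 7.64. Red levels were above dark ones in wild type and mostly below them in the mutants, with wide spread in phyABDE. The difference of 2.80 ± 1.02 was not called (limma adjusted p = 0.071). With mutant arrays paired by number, LEA was called (limma adjusted p = 0.0069), as was M17 (1.99, limma adjusted p = 0.027). LEA was also called without phyABDE dark replicate 1 (3.11) or R50 replicate 2 (3.16). Without wild-type dark replicate 4 it gave 3.57 (limma adjusted p = 0.018), and 2 of the 9 genes were called higher. With both phyABDE replicate 1 arrays left out as well, an alternative added after the data were seen, 6 were. Those 2 fits called 2014 and 1859 of 22746 probe sets higher. The arrays left out were the highest or lowest of their groups for seed genes themselves. These counts are therefore a description and no support. Of 3 genes of the glyoxylate cycle and seed lipid breakdown, ICL (0.46), SDP1 (0.33) and AIM1 (-0.12) were not called.

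Remaining families were described by counts alone, read against the 8.63% of probe sets called higher and 9% called lower over the whole array. Of 6 flavonoid genes, UGT78D2, a flavonol glucosyltransferase, was called higher at 1.81 and DFR, an anthocyanin enzyme, at 0.82 (0.35 with the offset of 16). Without wild-type R50 replicate 1 DFR gave 0.52 and was not called (limma adjusted p = 0.12). UDP-glucosyl transferases had 7 of 50 called higher, UGT78D2 again among them, and 3 lower. Also called were UGT84A3 (1.72, and 1.01 with the offset of 16) and UGT76E2 (-1.38). The counts were 4 higher and 1 lower without wild-type R50 replicate 1, and 1 lower without R50 replicate 2. UGT76E11 (1.15, limma adjusted p = 0.049) lost its call when any 1 array was left out except phyABCDE dark replicate 1 or R50 replicate 2, phyABDE dark replicate 3 or R50 replicate 2, or wild-type R50 replicate 2. Glutathione transferases had 2 of 13 higher (GSTU16, GSTU18) and 2 lower (GSTU26 at -1.55 and GSTU22 at -1.37). SWEET sugar transporters had 1 of 16 higher (SWEET1 at 1.04) and 2 lower (SWEET3 at -2.25 and SWEET16 at -1.51). SWEET1 gave 0.88 without wild-type R50 replicate 1 and was not called (limma adjusted p = 0.08). SWEET2 was called higher too with mutant arrays paired by number and without phyABCDE dark replicate 2 or wild-type dark replicate 3 (1.10, 1.30 and 1.42). Trichome birefringence-like proteins, which acetylate wall polymers, had 3 of 23 called higher and 3 lower, with TBL38 at -1.93 and TBL39 at -1.27. TBL15 lost its higher call with mutant arrays paired by number (0.51, limma adjusted p = 0.075), with the offset of 16 (0.17) and without most single arrays. TBL36 lost its lower call with quantile normalization (-0.75, limma adjusted p = 0.052), with the offset of 16 (-0.62, limma adjusted p = 0.051) and without several single arrays. TBL45 (0.90) was not called without wild-type R50 replicate 1 or 2 (limma adjusted p = 0.079 and 0.082), and 1 member was called higher without R50 replicate 1. Gibberellin genes had SLY2 higher (0.97, and 0.43 with the offset of 16) and the receptor GID1B lower (-0.73) at the very edge of the threshold (limma adjusted p = 0.05 after rounding), and the call on GID1B was lost in 18 of 28 alternatives. Among single arrays, only leaving out phyABCDE dark replicate 1 or 3, phyABDE R50 replicate 2, wild-type dark replicate 4 or wild-type R50 replicate 1 kept it, and the value ranged from -0.52 to -0.77 over the others. GID1A, another receptor gene, was called higher with mutant arrays paired by number (0.62) and without wild-type dark replicate 3 (0.73). The 10 autophagy genes had differences from -0.53 to 0.24, with limma adjusted p of 0.086 or more. Of 3 clock-regulated genes, GI and CCR2 were not called, at 0.26 and 0.30. COR27, a gene of the clock and cold response, was lower in red light in the mutant mean (-0.91, limma adjusted p = 0.017) and -0.11 in wild type. Its difference of 0.81 was not called (limma adjusted p = 0.066), and was without phyABCDE dark replicate 1, phyABDE dark replicate 3 or wild-type dark replicate 3 (0.89, 0.89 and 0.99). COR27 was chosen after its values were seen. ATHSP22.0, the 1 small heat shock gene named, was lower at -1.93, and at -1.19 with the offset of 16.

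The 69 reduced probe sets are those where a mutant response was seen along with a shortfall. Of them 63 (0.277%) went up and 6 (0.0264%) down in wild type, 26 had 1 gene and 6 of these a symbol. The mutants showed between 16.05% and 46.9% of the wild-type log2 change, with a median of 29.8%. The gene with the largest shortfall was AT5G48490. It read 4.28, 4.09 and 5.31 in dark and 10.98 and 11.02 in red wild type. In phyABCDE it read 4.26, 3.68 and 4.41 and then 4.86, 6.02 and 5.16, and in phyABDE 5.49, 4.41 and 4.57 and then 6.09, 6.13 and 6.96. Red arrays lay above dark ones in every genotype. The wild-type rise was 86.7-fold and the mean mutant rise 2.64-fold, and the difference was 5.04 ± 0.47 (limma adjusted p = 9.2e-07). The mutant call of AT5G48490 was lost without phyABCDE dark replicate 2, phyABDE dark replicate 2 or phyABDE R50 replicate 3 (limma adjusted p = 0.053, 0.059 and 0.053). AT5G38980 had responses of 4.76 in wild type, 0.47 in phyABCDE and 1.54 in phyABDE, and was classed as reduced in all 28 alternatives. AT4G22460 fell by 4.84 in wild type and by 0.94 in the mutant mean (limma adjusted p = 0.047), a mutant call that 18 of 28 alternatives did not make. Among single arrays that call held only without phyABCDE dark replicate 3, phyABCDE R50 replicate 1 or phyABDE R50 replicate 1.

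The 6 reduced genes with a symbol, chosen after their values were seen, were CaS, NdhL, PSBW, AOR, GSTU18 and iqd21. CaS is a calcium-sensing protein of the thylakoid. It read 7.25, 7.21 and 6.87 in dark and 9.92 and 9.79 in red wild type, 6.08, 6.53 and 6.45 and then 6.94, 7.77 and 7.66 in phyABCDE, and 8.10, 7.05 and 7.98 and then 8.25, 8.56 and 9.04 in phyABDE. The mean mutant response was 1.00 ± 0.19 (limma adjusted p = 0.022), against 2.74 in wild type, and the difference was 1.74 ± 0.35 (limma adjusted p = 0.0018). Without phyABCDE dark replicate 1, phyABCDE R50 replicate 2, phyABDE R50 replicate 2 or phyABDE R50 replicate 3 the mutant response of CaS was not called (limma adjusted p from 0.053 to 0.066). NdhL and PSBW belong to the photosynthetic groups above, with mutant responses of 0.58 and 0.38. AOR, a plastid reductase of reactive carbonyls, showed 0.52 against 1.74 in wild type, GSTU18 0.47 against 1.91, and iqd21 0.48 against 1.23. The mutant calls of NdhL, PSBW, AOR, GSTU18 and iqd21 were made in 10, 11, 18, 8 and 15 of 28 alternatives. All 5 were lost without phyABCDE dark replicate 1, phyABCDE dark replicate 2, phyABCDE R50 replicate 2, phyABCDE R50 replicate 3, phyABDE dark replicate 2, phyABDE R50 replicate 2 or phyABDE R50 replicate 3. The class held 121 probe sets with mutant arrays paired by number. It held 28, 26, 33 and 28 without phyABCDE dark replicate 1, dark replicate 2, R50 replicate 1 or R50 replicate 2. It held 20, 43, 19 and 19 without phyABDE dark replicate 2, dark replicate 3, R50 replicate 2 or R50 replicate 3. In the main calls 12 of the 69 kept their class under every alternative.

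Only 9 probe sets were classed as kept, 8 (0.0352%) going up and 1 (0.0044%) down in wild type, and 2 of them had 1 gene. AT1G10640 read 5.09, 4.95 and 4.43 in dark and 5.80 and 6.04 in red wild type. In phyABCDE it read 4.84, 4.05 and 4.45 and then 5.06, 5.00 and 5.10, and in phyABDE 4.44, 4.25 and 4.27 and then 5.07, 5.17 and 5.33. Red arrays lay above dark ones in each genotype. The responses were 1.09 in wild type and 0.73 in the mutant mean, and the difference of 0.36 was not called (limma adjusted p = 0.37), with a 95% interval of -0.14 to 0.86. Its value was 0.16 without wild-type dark replicate 4 and 0.24 without wild-type R50 replicate 2. AT3G48940 fell by 1.10 in wild type and by 0.59 in the mutant mean (limma adjusted p = 0.047), and with mutant arrays paired by number that mutant response was not called (limma adjusted p = 0.051). The mutant call of AT3G48940 was made in 10 of 28 alternatives, and among single arrays only without phyABDE R50 replicate 1, wild-type dark replicate 2 or wild-type dark replicate 4. Its difference was -0.51, and -0.33 without wild-type dark replicate 4. In all 8 rising kept probe sets the mutant response was the smaller one, so the missing call does not show an equal response. The class held 16 probe sets with paired mutant arrays. It held 4, 4, 5 and 5 without phyABCDE dark replicate 1, dark replicate 2, R50 replicate 1 or R50 replicate 2. It held 5, 16, 5 and 4 without phyABDE dark replicate 2 or R50 replicate 1, 2 or 3, and 15 without wild-type R50 replicate 1.

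The 17 turned probe sets fell in wild type and rose in the mutants in 15 cases (0.0659%), and did the reverse in 2 (0.00879%). Each mutant on its own moved against wild type at all 17, which the choice by the mutant mean made likely. On its own phyABDE was called at 3 of the 17 and phyABCDE at 1. All red arrays lay apart from all dark ones, opposite to wild type, at 17 in phyABDE and 14 in phyABCDE. AT5G53710 read 5.06, 4.92 and 4.60 in dark and 3.83 and 3.12 in red wild type. In phyABCDE it read 4.82, 4.62 and 4.97 and then 6.09, 6.02 and 6.06, and in phyABDE 4.88, 5.28 and 4.69 and then 6.15, 5.81 and 5.92. The red arrays lay below all dark ones in wild type and above all dark ones in both mutants. Its wild-type response was -1.39 ± 0.20 and its mean mutant response 1.13 ± 0.13 (limma adjusted p = 0.00086), and the difference was -2.52 ± 0.24 (limma adjusted p = 1.2e-06). The call was opposite in wild type and mutants in all 28 alternatives, and with the offset of 16 the difference was -1.55.

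AT1G52000 was the other turned gene with 1 locus whose class held in every alternative. It read 6.44, 7.12 and 6.24 in dark and 5.49 and 5.10 in red wild type, 6.20, 5.79 and 5.84 and then 6.38, 6.65 and 6.07 in phyABCDE, and 5.95, 5.91 and 6.11 and then 7.02, 7.55 and 7.64 in phyABDE. The rise was apart from the dark range in phyABDE and overlapped it in phyABCDE. Its difference was -2.22 ± 0.29 (limma adjusted p = 2.8e-05). AT2G37670 had the largest difference of the class among 1-gene probe sets, at -3.15, with responses of -2.50 in wild type, 0.79 in phyABCDE and 0.52 in phyABDE. Its mutant call was lost without phyABCDE dark replicate 1 or 2, phyABDE dark replicate 2 or phyABDE R50 replicate 3 (limma adjusted p from 0.052 to 0.06). AT2G37870 (-2.46), AT3G61490 (-2.00) and AT5G21100 (-1.56) completed the 6 with the largest differences. Their mutant responses of 1.14, 0.64 and 0.73 were called in 21, 22 and 21 of 28 alternatives, with limma adjusted p of at most 0.07 in the rest. Several of the 28, such as omissions of wild-type arrays, cannot change the size of a mutant response. The tallies are therefore no measure of its stability. The calls were lost in turn without single mutant arrays, which for all 3 included phyABCDE dark replicate 2, phyABCDE R50 replicate 2, phyABDE dark replicate 2, phyABDE R50 replicate 2 and phyABDE R50 replicate 3. Those were joined by phyABCDE R50 replicate 1 for AT2G37870, phyABCDE dark replicate 1 for AT3G61490, and phyABCDE R50 replicate 1 and phyABDE dark replicate 3 for AT5G21100.

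The turned class held 58 probe sets with mutant arrays paired by number, and all 17 were among them. It held 9, 6, 8 and 9 without phyABCDE dark replicate 1, dark replicate 2, R50 replicate 1 or R50 replicate 2. It held 7, 10, 7 and 7 without phyABDE dark replicate 2, dark replicate 3, R50 replicate 2 or R50 replicate 3, and 11 without wild-type R50 replicate 2. In the main calls 4 of the 17 kept their class under every alternative. No gene of the class had a symbol in the annotation used, so no role is given.

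**Figure D4:**
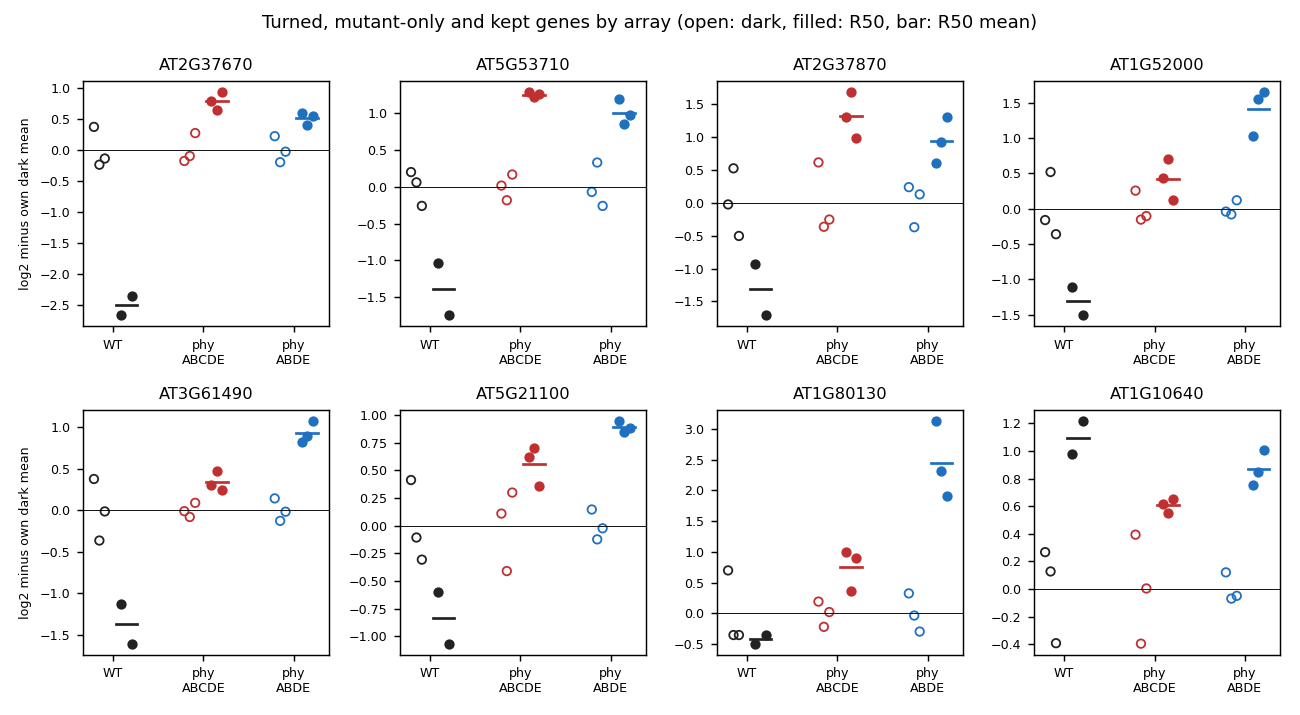
Each panel shows 1 gene and each point 1 array, as its log2 level minus the dark mean of its own genotype, with dark arrays open, R50 arrays filled and bars at the R50 means. In the 6 turned genes the red wild-type arrays lie below 0 and the red mutant arrays above it. AT1G80130 rises in the mutants alone and AT1G10640 rises in all 3 genotypes.

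Among the 13 probe sets called in the mutants and not in wild type, 5 had 1 gene. AT1G80130 read 5.24, 4.19 and 4.19 in dark and 4.05 and 4.19 in red wild type. In phyABCDE it read 5.55, 5.14 and 5.38 and then 6.36, 5.72 and 6.26, and in phyABDE 4.96, 4.60 and 4.34 and then 7.76, 6.95 and 6.55. Red lay above dark in both mutants, with responses of 0.76 and 2.45, and not in wild type, where replicate 2 was the highest dark array. The mean mutant response was 1.61 ± 0.21 (limma adjusted p = 0.0029) and the difference -2.03 ± 0.39 (limma adjusted p = 0.0012), and the class held in all 28 alternatives. AT2G25690 (-0.96), AT1G19970 (-0.79), AT1G50575 (-0.55) and AT1G09280 (0.45) had smaller differences. In AT1G19970 and AT1G50575 the red wild-type arrays lay below all dark ones, and in AT2G25690 and AT1G09280 they overlapped. A missing wild-type call therefore does not show an absent wild-type response. The difference of AT2G25690 was not called without wild-type R50 replicate 2 (-0.82, limma adjusted p = 0.094). That of AT1G50575 was called in 13 of 28 alternatives, and among single arrays only without phyABCDE dark replicate 2, phyABCDE R50 replicate 2, phyABDE dark replicate 1, phyABDE dark replicate 3 or phyABDE R50 replicate 2. That of AT1G09280 was called in 9 of 28, and among single arrays only without phyABDE dark replicate 3, phyABDE R50 replicate 3 or wild-type dark replicate 4. The mutant calls of AT2G25690, AT1G19970, AT1G50575 and AT1G09280 did not hold throughout either. That of AT2G25690 was made in 17 of 27 alternatives and lost without phyABCDE dark replicate 1 or 2, phyABCDE R50 replicate 1 or 3, phyABDE dark replicate 1 or 3 or phyABDE R50 replicate 1 or 2. That of AT1G19970 was made in 21 of 28 and lost without phyABCDE dark replicate 2, phyABCDE R50 replicate 1 or 2, phyABDE dark replicate 2 or 3 or phyABDE R50 replicate 2 or 3. That of AT1G50575 was made in 11 of 28, and among single arrays only without phyABCDE dark replicate 2, phyABDE dark replicate 1 or wild-type dark replicate 4. That of AT1G09280 was made in 8 of 28, and among single arrays only without phyABDE R50 replicate 3 or wild-type dark replicate 2 or 4. The class held 54 probe sets with paired mutant arrays. It held 4, 8, 7 and 8 without phyABCDE dark replicate 1, dark replicate 2, R50 replicate 1 or R50 replicate 2, and 6 and 5 without phyABDE dark replicate 2 or R50 replicate 2.

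Small mutant changes in the wild-type direction were common among the risers and fallers as groups. Over the 1194 probe sets that rose at least 2-fold in wild type, the median mean mutant response was 0.18 and 78.1% were above 0. Over all probe sets the median was 0.01 and 51.8% were above 0. The median share of the wild-type log2 change was 11.7%. The share went up with brightness, from 2.43% for risers with a mean log2 level under 4 to 7.01%, 14.8% and 17.7% in the next bands and 24.2% at 10 or more. For the 1010 fallers it was between 5.07% and 8.17% in every band, with 28 probe sets in the dimmest. The wild-type values chose these probe sets, so the shares are a description, and the cause of the link with brightness was not tested.

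**Figure D5:**
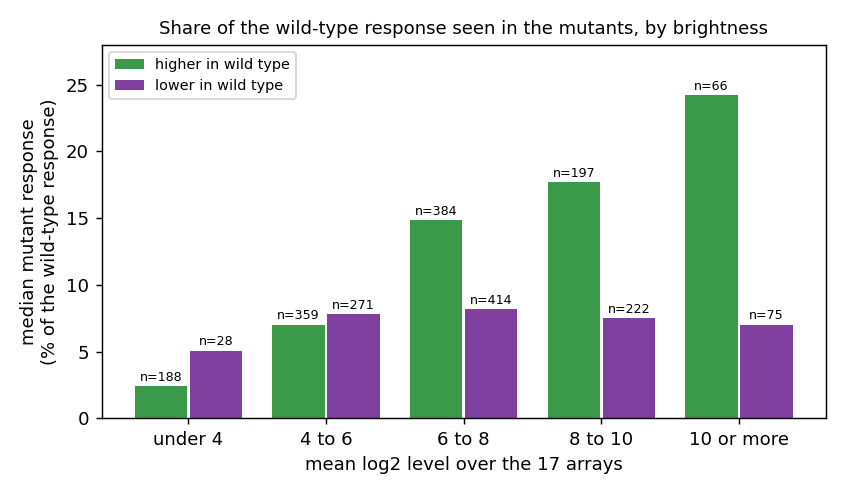
Bars give the median mean mutant response as a percentage of the wild-type response, for probe sets that changed at least 2-fold in wild type, split by mean log2 level over the 17 arrays, with the number of probe sets above each bar. For genes higher in wild type the bars climb from 2.43% to 24.2%, and for genes lower in wild type they stay between 5.07% and 8.17%.

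The mutants were then taken one at a time. The wild-type response differed from that of phyABCDE at 3625 probe sets (15.9%), 1751 higher (7.7%) and 1874 lower (8.24%), and from that of phyABDE at 2840 (12.5%), 1469 higher (6.46%) and 1371 lower (6.03%). These counts share the wild-type arrays. The responses of the 2 mutants, which share no array, differed at 0 probe sets by limma, with 785 (3.45%) at an unadjusted p under 0.05, and the median 95% half-width of that difference was 0.44. By itself phyABCDE had 2 called probe sets (0.00879%) and phyABDE 26 (0.114%), 22 of them upward (0.0967%) and 4 downward (0.0176%). Among risers the median response was 0.13 in phyABCDE with 74.2% above 0, and 0.23 in phyABDE with 78.6% above 0. Among fallers it was -0.02 in phyABCDE with 54.2% below 0, and -0.21 in phyABDE with 77.4% below 0. The phyABCDE faller median was -0.08 without phyABCDE R50 replicate 3 and 0.04 without R50 replicate 2, so its sign rested on single arrays. Across the 2204 responders the correlation of responses was 0.61 between the mutants, 0.54 between wild type and phyABDE and 0.30 between wild type and phyABCDE. These are descriptions over probe sets that the wild-type response chose and that share arrays and brightness.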

How the data were processed

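RNA from whole seedlings was hybridised to Affymetrix ATH1 arrays, per the labels. The deposited table holds 1 linear intensity per probe set and array, normalized by the authors. RMA, GCOS and limma, without versions, stand in the submitters' processing notes. Of 22810 probe sets, 64 controls were dropped. The rest were taken to log2 and fitted in limma 3.58.1 (R 4.3.3) on 6 group means over 17 arrays with 11 residual degrees of freedom, and 22746 p-values were adjusted by Benjamini-Hochberg, with calls at adjusted p under 0.05. An offset was added only where stated. The number of arrays limits the precision, and the median 95% half-width was 0.41 for the difference. Python 3.11.15 drew the figures. The fit was tested on simulated data.

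Probe sets were named through the platform annotation and RefSeq TAIR10.1, where 13436 of 13513 with 1 gene matched. Another 503 held several genes and 8730 were unnamed here. A gene is represented by its brightest probe set, and 13355 genes result, 1557 of them with a symbol. The labels call the replicates biological. Same-numbered dark and red arrays deviated together in phyABCDE (correlations of 0.33, 0.12 and 0.25) and phyABDE (0.48, 0.18 and 0.11), and with every such correlation over 0.1 the numbers were taken to pair the mutant arrays. The main fit and its classes did not use this pairing. It entered only as the replicate block alternative, where calls in the mean mutant response went from 143 to 333. In phyABDE replicate 3 correlated better with another number (0.18), and the others best with their own. Wild-type dark and red arrays share only number 2.

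The members and the 27 gene lists were chosen with earlier results of these data known. After values were seen, PSB27 was added to the photosystem list, OLEO3 was kept out of the seed level, lists with few measured members were dropped, and the glutathione transferase, redox, IQ-domain, TON1 recruiting motif, SWEET, glucosyltransferase and trichome birefringence-like families were added. The rule named, among probe sets with 1 gene, the 8 largest called differences in each direction, the same among genes with a symbol, up to 5 kept in each direction, 6 turned, 6 mutant only and up to 4 members of a list. Reduced genes and further list members were named after their values were seen. Alternatives were other normalizations, an offset of 16, a minimum mean log2 of 5, moderated-prior and array-weight options, a fit over all 22 arrays with a kit term, single-gene probe sets, the replicate block and the omission of arrays. The moderated prior, kit term, single-gene test, replicate block and omission of wild-type arrays leave the size of a mutant response unchanged. They alter only its spread or adjusted p, which limits every tally of mutant calls over alternatives.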

Additional observations from a re-analysis of the deposited data

Results flagged for a closer look

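The wild-type response differed from the mean mutant response at 4010 probe sets, from that of phyABCDE at 3625 and from that of phyABDE at 2840, each by limma's test of the difference itself. Responses called in opposite directions in wild type and in the mutants were found at 17 probe sets. The genes with 1 locus and the largest differences among these were AT2G37670 (-3.15), AT5G53710 (-2.52), AT2G37870 (-2.46), AT1G52000 (-2.22), AT3G61490 (-2.00) and AT5G21100 (-1.56). All 6 were lower in red light in wild type and higher in red light in the mutant mean. No group had the 4 samples needed to look for single outlying arrays.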

How the results depend on the processing

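Of the 128 named genes, none that was called turned direction in any alternative, and STOMAGEN, which was not called, went from -0.11 to 0.02 without wild-type R50 replicate 1. There were 3394 of 3556 values on the same side of the threshold, 117 that lost the call and 45 that gained it. The count of 4010 ranged from 2726 (without wild-type R50 replicate 1) to 4088 when 1 array was left out, and 45.2% to 51.7% of calls were higher over all alternatives. It was 1875 with a 2-fold minimum. The counts that rest on the mean mutant response moved most. With mutant arrays paired by a replicate block, the mean mutant response had 333 calls, and the reduced, kept, turned and mutant-only classes had 121, 16, 58 and 54, while 3814 of the 4247 calls in the difference were among the 4010. Median centring gave 86 mutant calls and 38 reduced, the offset of 16 gave 5 kept, and a trended robust prior 14 kept. Testing only the 13513 probe sets with 1 gene gave 1994 calls in the difference, 3017 in wild type, 41 in the mutant mean, 1749 against phyABCDE and 1410 against phyABDE. Its classes held 921 lost, 16 reduced, 1 kept, 7 turned and 3 mutant only, with fewer probe sets tested. Without both phyABDE replicate 1 arrays, 18 were kept and 11 turned, and with wild-type dark replicate 4 left out too, 19 and 10. A responder minimum of 0.58 gave 2892 lost and 23 kept, and one of 2 gave 418 lost, 39 reduced and 0 kept. Requiring the mutant interval within 0.25 times the wild-type change gave 648 lost. Leaving out 1 array moved wild-type calls between 3898 and 6006 and mutant calls between 46 and 167. It moved calls against phyABCDE between 2513 and 3746, against phyABDE between 2061 and 2966, and between the mutants from 0 to 0. The classes moved between 1691 and 1994 lost, 19 and 87 reduced, 4 and 16 kept, 6 and 19 turned, and 4 and 16 mutant only. The cause of these moves was not tested. Detection above background was not available, so changes of genes near a log2 level of 3 are known only on the deposited scale.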

Other observations

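One turned probe set without a gene name had a wild-type response of -3.83 and mutant responses of 1.14 in phyABCDE and 1.15 in phyABDE. One mutant-only probe set without a gene name had responses of 0.62 in wild type, 1.62 in phyABCDE and 1.91 in phyABDE.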
